A study of Mus musculus with 6 samples.

Results

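Expression of 10 genes that encode alcohol and aldehyde dehydrogenases was examined in mouse tongue: Adh1, Adh7, Aldh1a1, Aldh1a2, Aldh1a3, Aldh1a7, Aldh2, Aldh3a1, Aldh3a2 and Aldh3b1. They were chosen by name as enzymes of alcohol, aldehyde and retinoid oxidation in oral mucosa, out of 18193 genes measured on the array. All 10 were represented, by 17 probe sets in all, and the brightest probe set of each gene on average was taken as the main one. The treated tongues came from 3 C57BL/6J mice that drank water containing 4-nitroquinoline 1-oxide (4NQO), a carcinogen that damages DNA, at 100 μg/ml over 8 weeks. The control tongues came from 3 mice of this inbred strain that received no treatment, and the labels name no vehicle for them. Total RNA of the tongue tissue of each mouse was hybridized to 1 Affymetrix mouse array, so every value averages epithelium, muscle, connective tissue, gland and the other tissues of the organ.

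Alcohol dehydrogenases oxidise alcohols, among them ethanol and retinol, to aldehydes, and aldehyde dehydrogenases oxidise aldehydes to acids. Through these steps the enzymes clear acetaldehyde, which forms from ethanol in the mouth, and the reactive aldehydes that arise when membrane lipids are oxidised. Members of the ALDH1A group turn retinaldehyde into retinoic acid, the vitamin A derivative that controls how squamous epithelium differentiates.

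Values are log2 signals, so that a difference of 1 is a doubling, and the signals of different probe sets do not rank genes by level. Array medians over all probe sets lay between 4.45 and 4.55 on the 4NQO arrays and between 4.57 and 4.60 on the control arrays. Markers of skeletal muscle and of suprabasal tongue keratinocytes were bright on every array, with mean log2 signals of 12.09 to 12.89 and 11.28 to 11.90. Markers of salivary acini set arrays apart within the groups, with mean log2 signals of 9.03 in 4NQO 3, 8.43 in control 2 and 6.83 in control 3, against 4.34 to 4.49 on the other arrays. Adipocyte markers averaged 6.80 to 7.09 in 4NQO 1, 4NQO 3 and control 2 and 4.78 to 5.25 on the others. The Gapdh control probe sets gave a 3′ minus 5′ difference of 1.07 in 4NQO 2 and 1.67 in control 3, against 0.086 to 0.47 elsewhere. The actin control probe sets gave 1.12 in 4NQO 1, 1.01 in control 3 and 0.95 in 4NQO 2, against 0.55 to 0.83 elsewhere. In bulk tissue, fewer cells of a type and less RNA per cell cannot be told apart.

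None of the 10 dehydrogenase genes passed limma's test at an adjusted p under 0.05, a threshold that 0.126% of all genes passed upward and 0.0055% downward. At an unadjusted p under 0.05 from limma, Adh7 and Aldh1a2 were higher in 4NQO-treated tongue and Adh1 was lower. That level was reached upward by 6.68% of all genes and downward by 3.74%. For the same 3 genes the groups did not overlap: every 4NQO array lay above every control array for Adh7 and Aldh1a2, as for 9.59% of all genes, and below every control array for Adh1, as for 7.18%. The other 7 genes had overlapping groups. The log2 fold changes ran between -0.92 for Adh1 and 1.48 for Adh7, with a median of 0.22 against -0.01 over all genes.

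**Figure D1:**
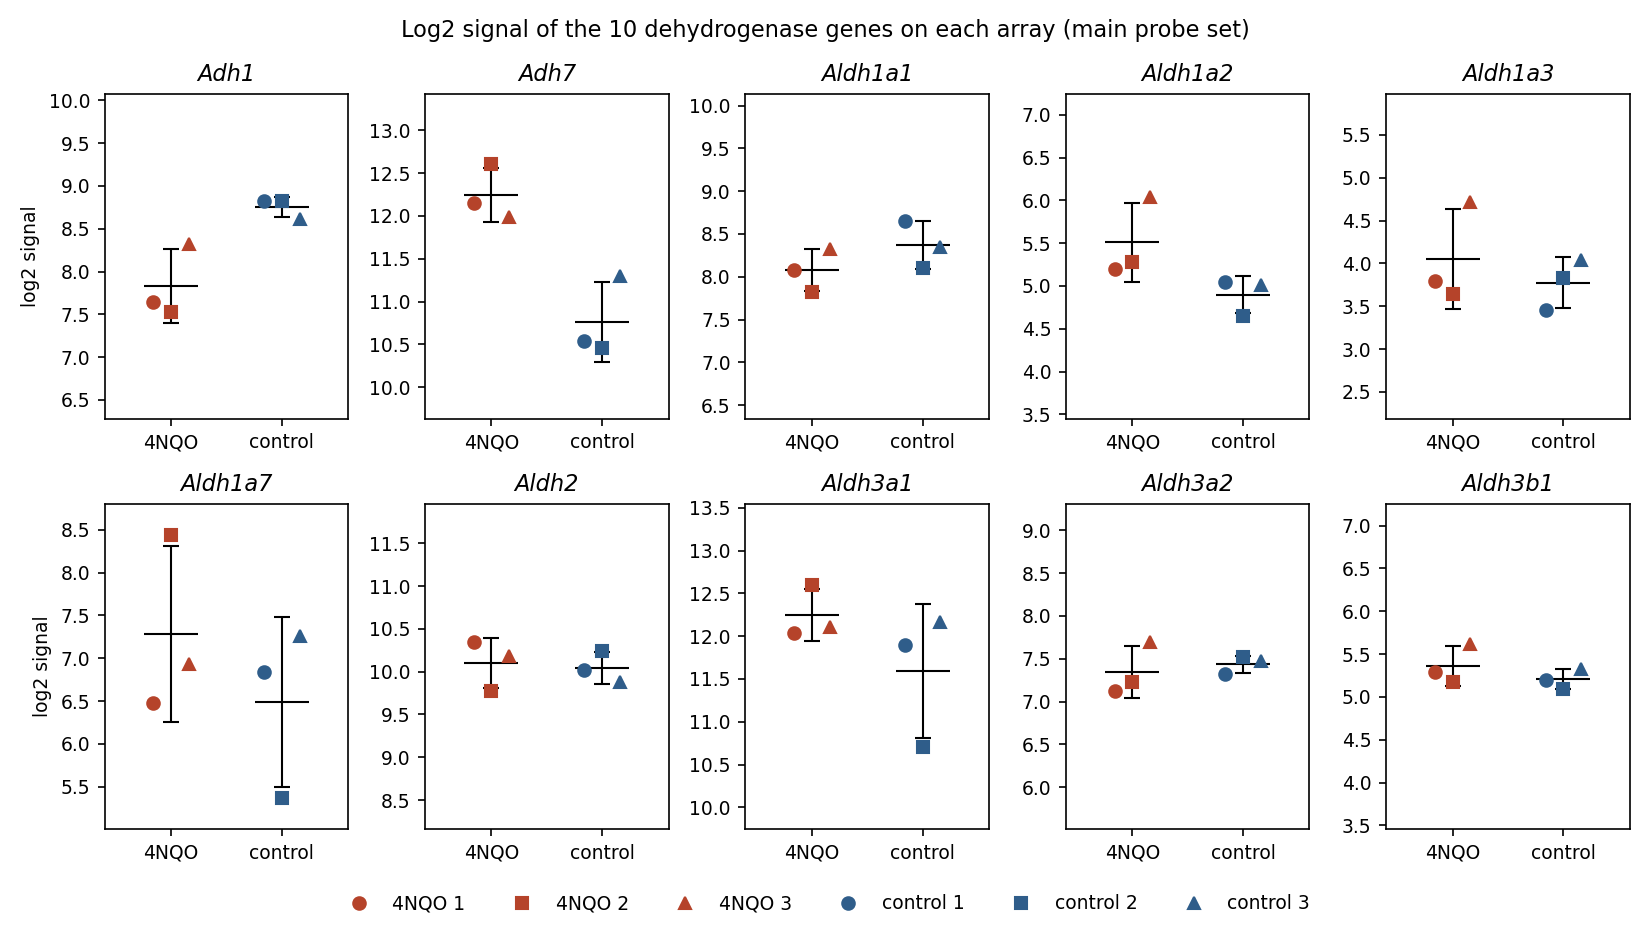
Log2 signal of each dehydrogenase gene on every array (main probe set; each panel spans the same log2 range), with 1 point per tongue, 4NQO left and control right, a bar at each group mean and whiskers of 1 SD (n = 3). The groups are separate for Adh7 and Aldh1a2, where 4NQO is higher, and for Adh1, where 4NQO is lower, and they overlap for the other 7 genes.

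Adh7 encodes the class IV alcohol dehydrogenase, which is known for its presence in the epithelium of the upper digestive tract and oxidises both ethanol and retinol. Its log2 signal was 12.15, 12.60 and 11.98 in 4NQO-treated tongues, against 10.53, 10.46 and 11.30 in control tongues. All 4NQO arrays lay above all control arrays, and control 3 was the highest of the controls. Adh7 averaged 12.25 ± 0.32 in 4NQO-treated tongue and 10.76 ± 0.46 in control tongue (SD, n = 3 each), a measured ratio of 2.80-fold. Its log2 fold change of 1.48 (SE 0.25, 95% confidence interval 0.91 to 2.06) had an adjusted p of 0.0776 from limma and ranked 84 of 18193 genes by p. A second probe set of Adh7 gave 8.70, 8.92 and 7.69 in 4NQO-treated tongues, against 6.14, 6.24 and 6.83 in control tongues. It too separated the groups, with a log2 fold change of 2.03 (SE 0.33, limma, adjusted p = 0.0940 over all single-gene probe sets). Without control 3 the main probe set of Adh7 had a log2 fold change of 1.75 and passed the test (limma, adjusted p = 0.033), while over all alternatives its adjusted p ran between 0.033 and 0.306.

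The suprabasal marker list, with all 9 genes measured, is given beside Adh7 because keratinocytes express it. The summed linear signal of the list ranged between 68733 and 72665 in 4NQO-treated tongues, against 51755 to 69663 in control tongues, with overlapping groups. The lowest value was that of control 2. The mean log2 signal of the list was 11.812 to 11.899 in 4NQO-treated tongues and 11.284 to 11.811 in control tongues. By that measure the groups did not overlap, though 4NQO 1 and control 3 nearly met. No gene of the list passed limma's test over all genes. At an unadjusted p under 0.05, 3 were higher and 0 lower, beside 6.68% and 3.74% of all genes. The log2 fold change was positive for 6 genes of the list and negative for 3, the lowest being -0.50 for Krt76. The stress keratins Krt16 and Krt6a had log2 fold changes of 0.78 and 0.34. Sprr1b, a cornified envelope precursor, had log2 signals of 11.57, 11.65 and 11.65 in 4NQO-treated tongues, against 9.14, 8.94 and 10.96 in control tongues, a log2 fold change of 1.94. As for Adh7, control 3 was the highest and control 2 the lowest of the control arrays. Krt13 and Krt4, the keratins of the mucosal suprabasal layers, had log2 fold changes of 0.09 and -0.20. The list of 7 basal keratinocyte markers ranged between 10.73 and 11.18 in mean log2 signal in 4NQO-treated tongues and between 10.65 and 11.13 in control tongues. The part of epithelial content in the Adh7 difference was not tested.

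Adh1, the class I alcohol dehydrogenase of ethanol and retinol oxidation, ran the other way. Its log2 signal was 7.64, 7.53 and 8.33 in 4NQO-treated tongues, against 8.83, 8.82 and 8.62 in control tongues. The control tongues lay close together and above every 4NQO-treated tongue, of which 4NQO 3 came nearest to them. Adh1 averaged 7.83 ± 0.43 in 4NQO-treated tongue and 8.75 ± 0.12 in control tongue (SD, n = 3 each). This gave a log2 fold change of -0.92 (SE 0.22, 95% confidence interval -1.43 to -0.41, limma, adjusted p = 0.194). Fibroblast markers, with all 8 measured, had mean log2 signals of 9.69 to 10.27 in 4NQO-treated tongues and 9.95 to 10.69 in control tongues, and their part in the Adh1 difference was not tested. The list was highest in control 3 (10.69), the control with the lowest Adh1 signal. The log2 fold change was negative for 7 of the 8 fibroblast markers. It was also negative for 9 of 10 skeletal muscle markers and 5 of 6 markers of smooth muscle and pericytes. Of the fibroblast markers, Col1a2 and Dcn lay lower on every 4NQO array than on any control array, as did 7.18% of all genes. The other 6 had overlapping groups. Col1a2 had a log2 fold change of -0.50 and Dcn one of -0.20, and neither passed limma's test over all genes.

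Adh7 and Adh1 are direct neighbours on mouse chromosome 3 in the GRCm38.p6 gene table, followed by Adh6a, Adh6b and Adh4. The within-array difference between their log2 signals, which no shift of a whole array can change, was 4.51, 5.07 and 3.66 in 4NQO-treated tongues, against 1.71, 1.64 and 2.68 in control tongues. The groups did not overlap, and the mean of that difference was higher by 2.40 in 4NQO-treated tongue. That difference follows from the values of both genes and is no ratio of their transcripts, since the probe sets differ. A permutation test of the group labels, counting differences in either direction, gave p = 0.1 for it. This is the smallest p such a test can give for 3 against 3 arrays. With Adh7 higher and Adh1 lower on every 4NQO array, both the separation and this p were fixed beforehand. No conclusion is drawn from them. The pair was chosen after its values were seen. Adh6a, Adh6b and Adh4, other alcohol dehydrogenases of this cluster, had log2 signals of 2.69 to 4.51, on every array below the median of that array, and a level above background is not shown for them. They are named for their position.

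The RefSeq table of GRCm38.p6 holds a window of 250 bases before and 50 after a listed gene start for 7 of the 10 genes, and not for Aldh1a3, Aldh2 and Aldh3a1. The windows were searched on both strands for TGACNNNGC, the core of the antioxidant response element, and for GCGTG, the core of the xenobiotic response element. The cores overlap in no window of the members. The windows of Adh7, Adh1 and Aldh1a2 are shown because the groups did not overlap for these genes, with matches to either core in capitals.
Adh7, chr3:138217523-138217822, plus strand: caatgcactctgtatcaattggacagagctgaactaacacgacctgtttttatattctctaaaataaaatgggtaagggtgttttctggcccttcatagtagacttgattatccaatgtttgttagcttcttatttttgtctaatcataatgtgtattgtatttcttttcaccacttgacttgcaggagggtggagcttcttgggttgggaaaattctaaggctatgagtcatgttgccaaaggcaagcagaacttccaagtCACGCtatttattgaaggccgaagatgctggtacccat
Adh1, chr3:138277335-138277634, plus strand: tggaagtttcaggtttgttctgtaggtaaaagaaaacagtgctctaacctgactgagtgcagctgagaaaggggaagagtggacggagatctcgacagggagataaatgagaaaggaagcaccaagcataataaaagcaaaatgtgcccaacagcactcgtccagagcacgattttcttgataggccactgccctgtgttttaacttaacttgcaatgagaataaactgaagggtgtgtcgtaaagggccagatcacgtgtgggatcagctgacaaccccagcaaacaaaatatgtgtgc
Aldh1a2, chr9:71215539-71215838, plus strand: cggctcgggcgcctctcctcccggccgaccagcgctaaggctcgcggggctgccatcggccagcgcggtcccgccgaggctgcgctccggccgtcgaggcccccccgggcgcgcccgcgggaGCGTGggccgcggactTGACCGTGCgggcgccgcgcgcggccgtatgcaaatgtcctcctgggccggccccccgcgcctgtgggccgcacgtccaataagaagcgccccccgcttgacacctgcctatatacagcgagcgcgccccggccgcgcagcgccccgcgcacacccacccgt
In the Adh7 window, positions 263 to 267 hold GCGTG on the minus strand, after the start that this window is drawn on. That start lies inside the gene as the gene table bounds it. In the Adh1 window neither set of letters was found. The Aldh1a2 window holds GCGTG at positions 123 to 127 and TGACNNNGC at positions 139 to 147, both on the plus strand. Of all 32851 windows of the table, 12.4% hold TGACNNNGC and 32.4% hold GCGTG. Among the 7 genes with a window, 1 holds the antioxidant core (Aldh1a2) and 3 hold the xenobiotic core (Adh7, Aldh1a2 and Aldh3a2). A match describes the letters only.

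Aldh1a2 encodes a retinaldehyde dehydrogenase that makes retinoic acid, known for its part in embryonic development. Its log2 signal was 5.20, 5.28 and 6.04 in 4NQO-treated tongues, against 5.04, 4.65 and 5.01 in control tongues. The groups did not overlap, but 4NQO 1 and control 1 lay only 0.16 apart, and 4NQO 3 was well above the rest. The signal was dim: in control 2 it lay close to the array median of 4.60, and leaving out dim genes removed Aldh1a2. Aldh1a2 averaged 5.51 ± 0.46 in 4NQO-treated tongue and 4.90 ± 0.22 in control tongue (SD, n = 3 each). The log2 fold change of 0.61 (SE 0.25, 95% confidence interval 0.03 to 1.19) had an adjusted p of 0.46 from limma. Without 4NQO 3 the log2 fold change was 0.34. The array 4NQO 3 also had the highest salivary marker signal, but control 2, with the next highest salivary signal, had the lowest Aldh1a2 signal of all arrays. The part of gland tissue in the Aldh1a2 value was not tested.

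Aldh1a1, the retinaldehyde dehydrogenase of many adult tissues, had log2 signals of 8.08, 7.83 and 8.33 in 4NQO-treated tongues, against 8.65, 8.10 and 8.35 in control tongues. The groups overlapped, and its log2 fold change was -0.29 (95% confidence interval -0.74 to 0.16). Aldh1a3, the third enzyme of retinoic acid synthesis, had log2 signals of 3.79, 3.64 and 4.72 in 4NQO-treated tongues, against 3.45, 3.83 and 4.04 in control tongues. Only in 4NQO 3 did Aldh1a3 exceed the array median, so on the other arrays a level above background is not shown. Its 3 highest arrays by the main probe set (4NQO 3, control 3 and control 2) were the 3 with the highest salivary marker signal. The same arrays were highest by another probe set, while by the dimmest probe set control 2 was the lowest of all arrays (2.82). The part of gland tissue was not tested. Aldh1a3 had a log2 fold change of 0.28 by the main probe set and 0.06 and 0.64 by the other probe sets, with overlapping groups for each.

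Aldh1a7 is a close relative of Aldh1a1 in mouse, and the genes are direct neighbours on chromosome 19. Aldh1a7 had log2 signals of 6.47, 8.44 and 6.94 in 4NQO-treated tongues, against 6.83, 5.37 and 7.26 in control tongues. It spread the most within the groups of the 10 genes, over 1.97 in 4NQO-treated tongues and over 1.89 in control tongues, while Aldh1a1 spread over 0.50 and 0.55. The highest array was 4NQO 2 and the lowest was control 2. The log2 fold change of 0.80 (SE 0.60, 95% confidence interval -0.59 to 2.18, limma, adjusted p = 0.673) was smaller than the spread between tongues. It was 0.22 without 4NQO 2 and 0.24 without control 2. For each gene only 1 probe set was annotated to it alone, and how far transcripts of one are read by the probes of the other is not known from these data.

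The windows of Aldh1a1 and Aldh1a7 are shown for the sequence these neighbours share. Aldh1a1 has 2 windows in the table. The one printed is that of its second listed start, inside the gene as the gene table bounds it, while the window of the first start had no identical run with Aldh1a7 longer than 8 bases. Capitals mark the longest identical stretch, which runs over 65 bases at positions 157 to 221 in each, and of 225 aligned bases 208 were identical (92.4%).
Aldh1a1, chr19:20601718-20602017, plus strand: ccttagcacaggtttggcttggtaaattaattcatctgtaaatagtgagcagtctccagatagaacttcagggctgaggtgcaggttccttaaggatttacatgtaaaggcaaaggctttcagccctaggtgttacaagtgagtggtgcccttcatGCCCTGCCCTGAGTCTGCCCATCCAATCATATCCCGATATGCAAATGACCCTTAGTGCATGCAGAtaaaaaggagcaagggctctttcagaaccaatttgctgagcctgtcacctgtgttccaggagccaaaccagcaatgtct
Aldh1a7, chr19:20727507-20727806, minus strand: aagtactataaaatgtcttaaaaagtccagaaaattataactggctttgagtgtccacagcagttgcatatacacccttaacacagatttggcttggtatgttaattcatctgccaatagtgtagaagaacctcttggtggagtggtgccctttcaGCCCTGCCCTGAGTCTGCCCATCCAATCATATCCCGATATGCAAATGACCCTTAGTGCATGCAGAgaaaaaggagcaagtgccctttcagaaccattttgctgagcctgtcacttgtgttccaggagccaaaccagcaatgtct
None of these windows holds either response element core. The array signals of both genes ranked the tongues differently, with 4NQO 2 the highest array for Aldh1a7 and the lowest for Aldh1a1.

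Aldh2, the mitochondrial enzyme that clears acetaldehyde, had log2 signals of 10.35, 9.77 and 10.18 in 4NQO-treated tongues, against 10.02, 10.25 and 9.88 in control tongues. The groups overlapped throughout, with a log2 fold change of 0.05 and a 95% confidence interval of -0.36 to 0.47. By the main probe set only, the 3 brightest arrays of Aldh2 (4NQO 1, control 2 and 4NQO 3) were the 3 with high adipocyte markers. The part of fat tissue was not tested. The 5 probe sets of Aldh2 disagreed. The second brightest gave 6.43, 5.78 and 6.43 in 4NQO-treated tongues, against 6.80, 7.49 and 6.76 in control tongues, with no overlap. Its log2 fold change of -0.80 (SE 0.26) did not pass the test over all single-gene probe sets (limma, adjusted p = 0.368). The other 3 probe sets had log2 fold changes of -0.23, 0.45 and -0.06 with overlapping groups.

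Aldh3a1, which oxidises aromatic and lipid-derived aldehydes and is abundant in cornea, had log2 signals of 12.04, 12.59 and 12.10 in 4NQO-treated tongues, against 11.90, 10.70 and 12.17 in control tongues. Control 2 stood apart on the low side, and control 3 lay above 4NQO 1 and 4NQO 3. Aldh3a1 averaged 12.24 ± 0.30 in 4NQO-treated tongue and 11.59 ± 0.78 in control tongue (SD, n = 3 each). The log2 fold change of 0.66 (SE 0.36, 95% confidence interval -0.17 to 1.48) had an adjusted p of 0.565 from limma, and without control 2 it was 0.21. Its neighbour on chromosome 11, Aldh3a2, encodes the fatty aldehyde dehydrogenase. Aldh3a2 had log2 signals of 7.12, 7.22 and 7.69 in 4NQO-treated tongues, against 7.33, 7.52 and 7.47 in control tongues, and a log2 fold change of -0.09 (95% confidence interval -0.51 to 0.33). Aldh3b1, which acts on medium- and long-chain aldehydes, had log2 signals of 5.29, 5.17 and 5.62 in 4NQO-treated tongues, against 5.20, 5.09 and 5.33 in control tongues. Its log2 fold change was 0.15 (95% confidence interval -0.24 to 0.55). For Aldh3a2 and Aldh3b1 the groups overlapped, and the intervals leave room for modest differences in either direction.

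**Figure D2:**
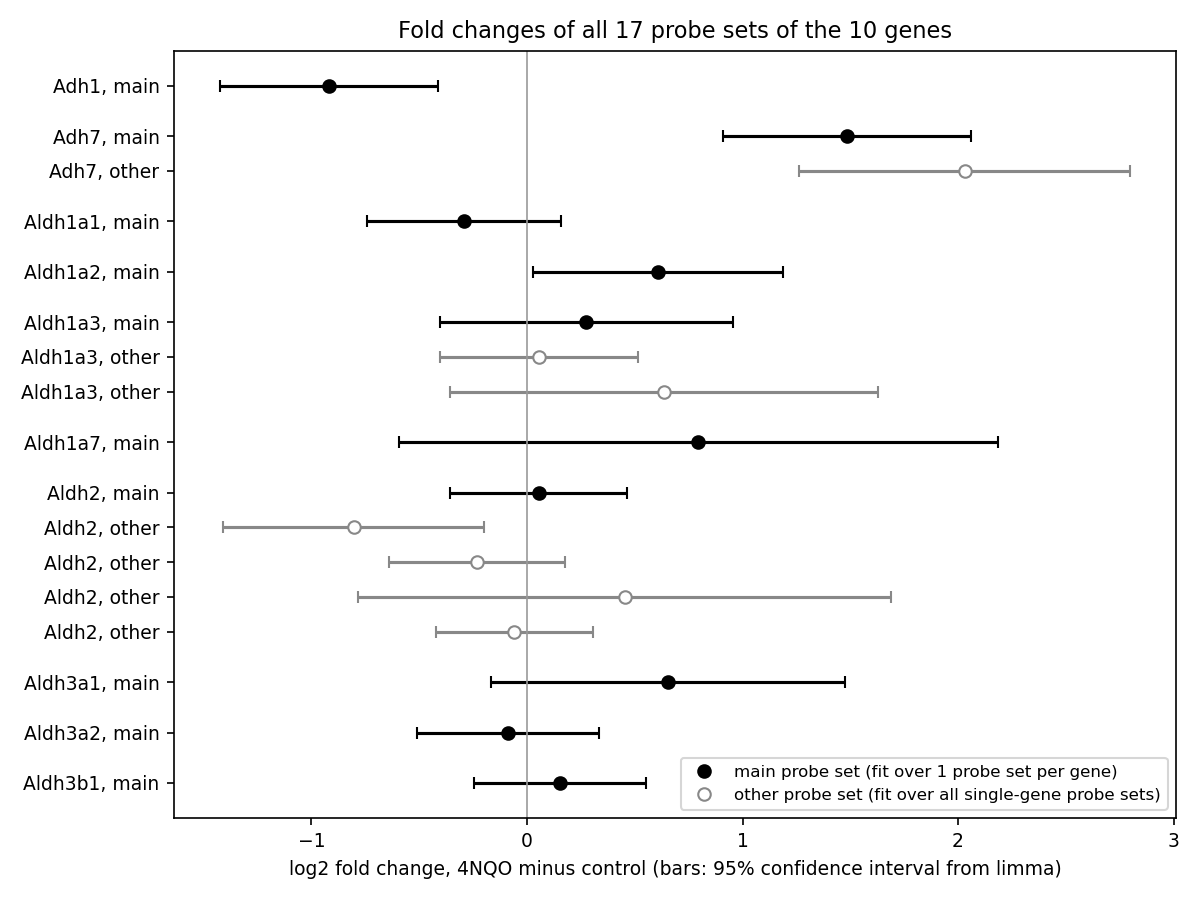
Log2 fold change of 4NQO minus control for all 17 probe sets of the 10 genes, with filled points for main probe sets, open points for others and bars for the 95% confidence interval from limma. Both probe sets of Adh7 lie above 0 (1.48 and 2.03), Adh1 lies below 0 (-0.92), and the 5 probe sets of Aldh2 run between -0.80 and 0.45.

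Adh7, Aldh3a1 and Aldh1a7 shared their order of arrays in part. For these 3 genes, 4NQO 2 was the highest array of all, control 3 the highest control array and control 2 the lowest of all. These 3 were the only ones of the 10 genes with 4NQO 2 and control 3 as the highest array of their groups. Adh1 and Aldh2, by their main probe sets, had 4NQO 2 and control 3 as the lowest array of their groups. The same arrays, 4NQO 2 and control 3, had the largest 3′ minus 5′ difference of Gapdh, while that of actin was largest in 4NQO 1. The 10 skeletal muscle markers had their lowest mean log2 signals in 4NQO 2 (12.09) and control 3 (12.15), against 12.67 to 12.89 elsewhere. Most of that gap came from the fast myosins Myh2, with 5.01 in 4NQO 2 and 5.43 in control 3 against 8.49 to 9.36 elsewhere, and Myh1, with 11.02 and 10.71 on these arrays against 12.01 to 12.39 elsewhere. The suprabasal marker list had the same ends as the 3 genes: its mean log2 signal was highest of all in 4NQO 2 (11.90), highest among controls in control 3 (11.81) and lowest of all in control 2 (11.28). The part of these differences between arrays in the values of the 3 genes was not tested. Without both arrays, a choice made after seeing the data, the log2 fold changes were 1.57 for Adh7, 0.77 for Aldh3a1 and 0.60 for Aldh1a7, against 1.48, 0.66 and 0.80 with all arrays. Adh7 then had an adjusted p of 0.0621 from limma. For 6 of the other genes (Adh1, Aldh1a1, Aldh1a2, Aldh1a3, Aldh3a2 and Aldh3b1) the highest array among 4NQO-treated tongues was 4NQO 3.

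**Figure D3:**
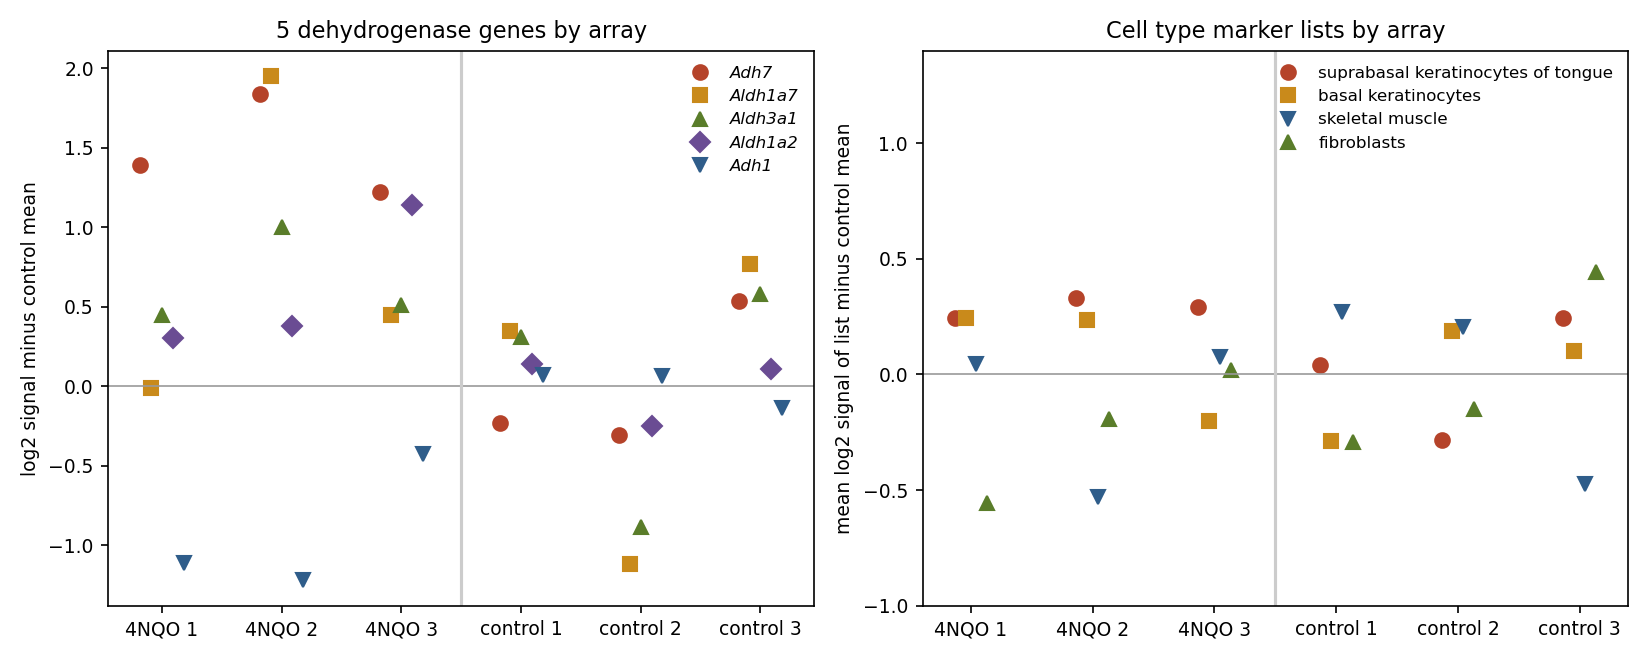
Left, log2 signal of 5 dehydrogenase genes on each array minus the mean of the control arrays. Right, mean log2 signal of 4 cell type marker lists, expressed in the same way. Adh7, Aldh3a1 and Aldh1a7 are highest in 4NQO 2 and lowest in control 2, and skeletal muscle markers are lowest in 4NQO 2 and control 3.

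The other alcohol and aldehyde dehydrogenases formed a list of 17 genes, all measured. None passed limma's test over all genes. At an unadjusted p under 0.05 there were 3 with a higher and 2 with a lower signal, beside 6.68% and 3.74% of all genes, and the median log2 fold change was -0.11. Aldh1l2, a mitochondrial enzyme of folate metabolism, had 7.22, 6.87 and 7.26 in 4NQO-treated tongues, against 6.64, 6.40 and 6.47 in control tongues, a log2 fold change of 0.61 (limma, adjusted p = 0.256). Aldh18a1, an enzyme of proline synthesis, had 6.38, 5.98 and 6.74 in 4NQO-treated tongues, against 5.73, 5.67 and 5.75 in control tongues, a log2 fold change of 0.65. As the mean of all its probe sets Aldh18a1 had 0.26. By the main probe sets 4 genes of the list lay higher on every 4NQO array, as did 9.59% of all genes. These were Aldh1l2, Aldh18a1, Aldh3b2 (log2 fold change 0.31) and Adh5 (0.22). Only 1 gene, Aldh1b1, lay lower on every 4NQO array, as did 7.18% of all genes. Aldh1b1, a mitochondrial relative of Aldh2, lay lower on every 4NQO array, with 4.44, 4.80 and 4.68, against 5.07, 5.12 and 5.50 in control tongues and a log2 fold change of -0.59 (limma, adjusted p = 0.307). In 4NQO 1 its signal was below the array median, so a level above background is not shown there. Adh6a had a log2 fold change of -0.95 at signals for which a level above background is not shown. Apart from Aldh1l2, Aldh18a1, Aldh1b1 and Adh6a, the genes of the list lay between -0.37 and 0.34.

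Retinoid metabolism and response was followed through a list of genes of which 34 were measured. None passed limma's test over all genes. At an unadjusted p under 0.05 the signal was higher for 4 genes and lower for 1, beside 6.68% and 3.74% of all genes, and the median log2 fold change was -0.08. Rdh10, the retinol dehydrogenase that makes retinaldehyde from retinol, had log2 signals of 7.13, 7.22 and 7.56 in 4NQO-treated tongues, against 6.24, 6.54 and 6.94 in control tongues. The groups did not overlap, with a log2 fold change of 0.73 (limma, adjusted p = 0.293). Rdh11, a retinaldehyde reductase, also lay higher on every 4NQO array, with a log2 fold change of 0.75. Crabp1, a retinoic acid binding protein of the cytosol, had a log2 fold change of 0.86 with overlapping groups. Tgm2, a transglutaminase known to respond to retinoic acid, lay lower on every 4NQO array, with 10.39, 10.17 and 10.37, against 10.75, 10.96 and 10.85 in control tongues and a log2 fold change of -0.54 (limma, adjusted p = 0.164). Of the 34 genes, 3 lay higher on every 4NQO array and 1 lower, beside 9.59% and 7.18% of all genes.

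**Figure D4:**
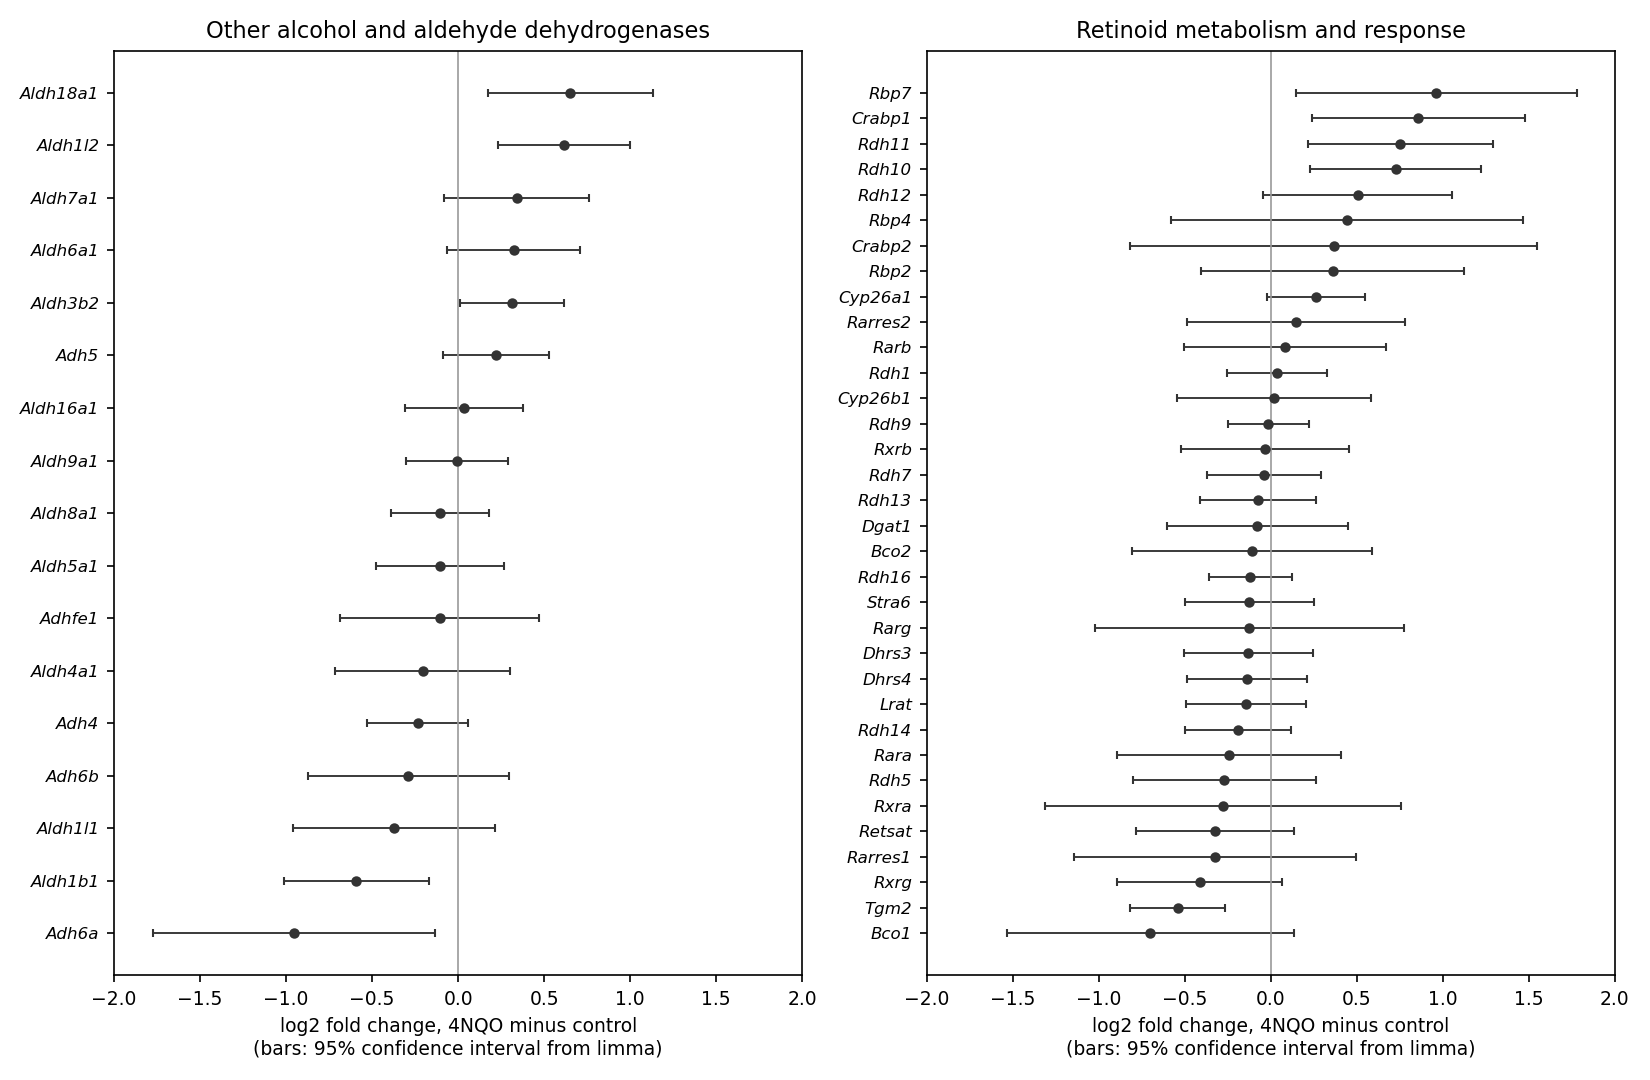
Log2 fold change of 4NQO minus control for 17 other alcohol and aldehyde dehydrogenases (left) and 34 genes of retinoid metabolism and response (right), with bars for the 95% confidence interval from limma. The values run between -0.95 for Adh6a and 0.65 for Aldh18a1 on the left and between -0.70 for Bco1 and 0.96 for Rbp7 on the right, and none passed the test over all genes.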

How the data were processed

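Total RNA of tongue tissue from 6 mice was measured on Affymetrix mouse arrays, 1 per tongue. The authors filtered and normalized the arrays in R with Bioconductor packages and deposited a log2 signal for every probe set. How they normalized is not stated in the sources used. Of 45101 probe sets, 34945 were annotated to 1 gene, and array controls, unnamed probe sets and the 932 that name several genes were not used. Of the 18193 genes, 18032 were found by Entrez ID in the RefSeq gene table (GRCm38.p6). Groups were compared with limma 3.58.1 in R 4.3.3 (lmFit, eBayes with an intensity trend) and Benjamini-Hochberg adjustment over all genes, in place of the SAM of the study, with no filter on dim genes. The test was run on simulated data with independent noise on each array. That run cannot show how the test behaves here, since deviations of the real arrays correlated (0.48 for 4NQO 2 with control 3). The members and lists were chosen with earlier results of these data known. Named beside the members were the genes of each list with the smallest p, 4 per list, and markers that define a cell type. Alternatives were quantile normalization, centring, leaving out dim genes, averaged probe sets, no intensity trend, the replicate number as a block and leaving out each array. The number of arrays limits the precision. The limma p-values weigh each difference against the variation between these tongues only, moderated over all genes. Proteins were not compared here.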

Additional observations from a re-analysis of the deposited data

How the results depend on the processing

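The number of members past the threshold was 0 higher and 0 lower under every alternative, except that without each array in turn the number higher ran between 0 and 1, the 1 being Adh7 without control replicate 3. The log2 fold change of Adh7 ran between 1.31 and 1.75 over these fits, and those of Adh1, Aldh1a1, Aldh1a2, Aldh1a7, Aldh3a1 and Aldh3b1 kept their sign under every alternative that gave a value. Leaving out dim genes removed Aldh1a2, Aldh1a3 and Aldh3b1. Leaving out 1 array turned the sign of Aldh1a3 (-0.057 to 0.48), Aldh2 (-0.069 to 0.22) and Aldh3a2 (-0.26 to 0.022), and Aldh2 was -0.12 as the mean of its probe sets. Among other probe sets, 1 of Aldh1a3 ran between -0.15 and 0.18, and 2 of Aldh2 between -0.27 and 0.87 and between -0.17 and 0.043. The first of these Aldh2 probe sets was -0.27 without control 3 and 4NQO 2, an alternative chosen after seeing the data, and the second was 0.017 with quantile normalization and 0.016 with centred arrays. Over all genes, 63 were higher with centred arrays, 12 without dim genes, 15 with averaged probe sets, 2 with the replicate block, 4 without control 3 and 4NQO 2, and 0 to 25 without each array in turn (0 without control 2, 1 without 4NQO 2 and 10 without 4NQO 1). The number lower was 2 with centred arrays and without the intensity trend, 0 with the replicate block and without control 3 and 4NQO 2, and 0 to 2 without each array. The causes were not tested. Deviations of arrays with the same replicate number correlated at 0.29, -0.51 and 0.05, and whether the numbers pair the tongues is not known. The highest correlation was 0.48, of 4NQO 2 with control 3, and 4NQO 1 correlated at 0.31 with control 2. With the replicate block the log2 fold change of Adh7 stayed at 1.48 (limma, adjusted p = 0.28).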
